A study of Mus musculus with 28 samples.

Results

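The carboxylesterase genes of the Ces1 and Ces2 subfamilies were followed in mouse liver nuclei after activation of CAR, the nuclear receptor Nr1i3 (constitutive androstane receptor). The members were 10 genes chosen by name, Ces1c, Ces1d, Ces1e, Ces1f and Ces1g, and Ces2a, Ces2b, Ces2c, Ces2e and Ces2g. All 10 had a row in the authors' deposited table of 24197 RefSeq genes. Liver RNA came from outbred CD-1 mice, Crl:CD1(ICR), given TCPOBOP, a synthetic CAR agonist, or vehicle, and it was extracted from purified nuclei and selected for poly(A). Each of the 28 libraries was made from 1 liver.

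The libraries formed 8 groups, 4 given TCPOBOP and each of these with a vehicle group. At 2 weeks after 1 intraperitoneal dose of 3 mg/kg in the low corn oil regimen, with 4 µl per g body weight and 10% DMSO, there were 4 TCPOBOP males with 3 vehicle males, and 4 TCPOBOP females with 3 vehicle females, all aged 9 to 10 weeks. At 8 weeks, 3 TCPOBOP males and 3 vehicle males of the high corn oil regimen, with 20 µl per g and 2% DMSO, were aged 15 to 16 weeks, and the first dose of 3 mg/kg was followed by doses of 1 mg/kg. Also at 8 weeks, 4 TCPOBOP males of the low corn oil regimen had later doses of 1.5 mg/kg and were aged 15 to 16 weeks. Their 4 vehicle males were treated for 4 to 8 weeks, and 2 of these were aged 11 to 12 weeks. Below, this pair is counted as an 8-week pair. Its treatment differences cannot be fully told apart from time and age. The labels give no genetic change in any animal, and every group received corn oil with DMSO.

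Carboxylesterases are serine hydrolases of the endoplasmic reticulum that split ester and amide bonds in drugs, pesticides and lipids, and liver is their richest site. Ces1 enzymes prefer esters with a large acyl group and Ces2 enzymes those with a large alcohol group, and several of them also act on stored triglyceride and cholesteryl ester. In rodents the single human genes CES1 and CES2 correspond to tandem arrays of duplicated genes. In the RefSeq annotation all members lie on chromosome 8, the Ces1 genes in 1 run and the Ces2 genes in a second run that continues into Ces3a, Ces3b and Ces4a.

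The values are FPKM (fragments scaled to gene length and to the number mapped), given by the authors as 1 pooled value per group and without an error, so no spread between mice accompanies a level. The depth of the libraries is unknown. A gene was called higher or lower where the authors' edgeR p-value, which has the form of an adjusted p, was under 0.05, and this p is what sets a difference against the spread between mice. In bulk RNA, fewer cells of a type and less RNA per cell cannot be told apart. Of the CAR target Cyp2b10 the TCPOBOP groups held 238 to 499 FPKM and the vehicle groups 1.72 to 7.25 FPKM in the authors' deposited table. These pooled values followed the treatment labels in all pairs, and single libraries could not be checked.

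Ces2a and Ces2c, next to each other in the Ces2 run apart from Ces2b, rose under TCPOBOP in all 4 comparisons, as did Ces1d among the Ces1 genes. Of all genes in the authors' deposited table, 0.959% were called higher in all 4. Among Ces2a, Ces2c and Ces1d, only Ces2a was still called in all 4 at an adjusted p under 0.01, or with at least 2-fold required. Ces1c, Ces1g, Ces1e and Ces2e were called in some comparisons, and Ces1f, Ces2b and Ces2g in none of the 4. Across the 4 pairs, Ces2a was the highest member in every TCPOBOP group and never the highest in a vehicle group.

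Ces2a, formerly Ces6, stood at 438 FPKM in TCPOBOP males and 100.5 FPKM in vehicle males at 2 weeks. In females at 2 weeks it stood at 763 FPKM under TCPOBOP and 58.1 FPKM under vehicle. At 8 weeks it reached 580 FPKM in TCPOBOP males and 60.9 FPKM in vehicle males of the high corn oil regimen, and 294 FPKM in TCPOBOP males and 80.8 FPKM in vehicle males of the low corn oil regimen. The lowest TCPOBOP group thus lay well above the highest vehicle group. The deposited rise was 4.15-fold in 2-week males (adjusted p = 5.85e-18), 12.96-fold in 2-week females (adjusted p = 3.53e-20), 9.83-fold under high corn oil (adjusted p = 9.57e-25) and 3.39-fold under low corn oil (adjusted p = 2.35e-11) in the authors' deposited table. In 2-week females only 38 of 10877 genes of at least 1 FPKM had a larger log2 fold change.

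Ces2c, whose enzyme hydrolyses acylcarnitines and glycerides in mice, had much lower levels. It stood at 10.3 FPKM in TCPOBOP males and 3.01 FPKM in vehicle males at 2 weeks, and at 16.8 FPKM in TCPOBOP females and 0.682 FPKM in vehicle females. At 8 weeks the values were 12.3 FPKM in TCPOBOP and 2.61 FPKM in vehicle males under high corn oil, and 11.6 FPKM in TCPOBOP and 6.05 FPKM in vehicle males under low corn oil. As ratios between groups, though not as FPKM differences, the TCPOBOP groups lay closer together than the vehicle groups. Its rise was 24.5-fold in 2-week females (adjusted p = 1.91e-23), 3.28-fold in 2-week males (adjusted p = 9.44e-10), 4.94-fold under high corn oil (adjusted p = 3.64e-08) and 1.78-fold under low corn oil (adjusted p = 0.022) in the authors' deposited table. The female fold is the most sensitive to the low vehicle level, since with a pseudocount of 1 FPKM its log2 value was 3.41 in place of 4.62.

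Part of the Ces2c transcript is shared with a neighbour. Of the 50-base stretches of Ces2c mRNA in the GENCODE annotation, 38.2% also occur in transcripts of the pseudogene Ces2d-ps, and for Ces2a 16.6% occur in the pseudogene Gm7208. The treatment of reads that match several places is not stated in the labels or the file header, so the split between these genes is uncertain. Ces2d-ps itself held 0.340 to 1.94 FPKM over the groups and was called higher in 2-week females, at 1.13 FPKM under TCPOBOP and 0.340 FPKM under vehicle (adjusted p = 1.09e-05) in the authors' deposited table. For the Ces1 members the shared part was at most 16.3% (Ces1c, largely with Ces1b). All these shares are of mRNA, whereas the deposited FPKM values are over RefSeq gene bodies.

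The upstream sequences of the inducible pair are shown with that of Ces2e, a gene of the same run that was called in 1 of the 4 comparisons. Each is the 250 bases before the RefSeq start on the plus strand of GRCm38.p6, another build than the mm9 of the authors' alignment, at chr8:104733753-104734002 for Ces2a, chr8:104846818-104847067 for Ces2c and chr8:104926010-104926259 for Ces2e. Capitals mark the longest run of bases common to Ces2a and Ces2c and AGGTCA, the hexamer that nuclear receptors recognise.
Ces2a: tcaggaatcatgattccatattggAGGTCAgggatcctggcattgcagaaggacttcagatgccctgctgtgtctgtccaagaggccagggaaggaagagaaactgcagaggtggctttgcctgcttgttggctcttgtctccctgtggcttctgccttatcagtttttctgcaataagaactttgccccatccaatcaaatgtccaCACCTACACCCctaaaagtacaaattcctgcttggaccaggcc
Ces2c: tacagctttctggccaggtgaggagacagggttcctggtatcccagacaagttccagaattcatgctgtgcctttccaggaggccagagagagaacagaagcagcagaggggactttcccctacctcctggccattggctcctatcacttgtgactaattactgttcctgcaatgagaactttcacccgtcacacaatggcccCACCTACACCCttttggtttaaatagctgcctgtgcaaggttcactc
Ces2e: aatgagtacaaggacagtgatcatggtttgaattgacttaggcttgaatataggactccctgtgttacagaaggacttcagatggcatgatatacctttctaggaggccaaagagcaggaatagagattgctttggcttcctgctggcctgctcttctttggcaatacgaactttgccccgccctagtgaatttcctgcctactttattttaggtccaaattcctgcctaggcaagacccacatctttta

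Of the 10 members, 7 had a RefSeq promoter window, and Ces1d, Ces1f and Ces2b had none. Over the 21 pairs of these windows the identity was highest between Ces2a and Ces2c, at 65.0% of alignment columns, and 53.2% between Ces2a and Ces2e. The run CACCTACACCC begins at position -43 in Ces2a and -47 in Ces2c. It does not set this pair apart, since longer runs, not put in capitals, are shared with other members. Ces2a and Ces2e have a run of 17 bases in common, at -205 and -183, and Ces2c and Ces2g 1 of 13, at -121 and -100. Both strands of these bases were searched for the hexamers AGGTCA and AGTTCA, for TATAAA, and for the 4 direct repeats of these hexamers with 4 spacing bases, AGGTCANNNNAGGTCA, AGGTCANNNNAGTTCA, AGTTCANNNNAGGTCA and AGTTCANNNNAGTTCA, the kind of element CAR is known to bind, whose matches contain those of the hexamers. No repeat was found in a member's window, and these repeats occur in at most 0.0152% of the 32851 RefSeq windows of the same length. A match so rare was unlikely in 7 windows, so its absence says little. Inexact matches and bases further upstream were not searched. AGGTCA occurred once, in Ces2a at position -226 from the start, against 14.0% of all windows, and TATAAA once, in Ces1g on the minus strand, against 12.4% of all windows. AGTTCA was in no member's window and in 11.8% of all windows.

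**Figure D1:**
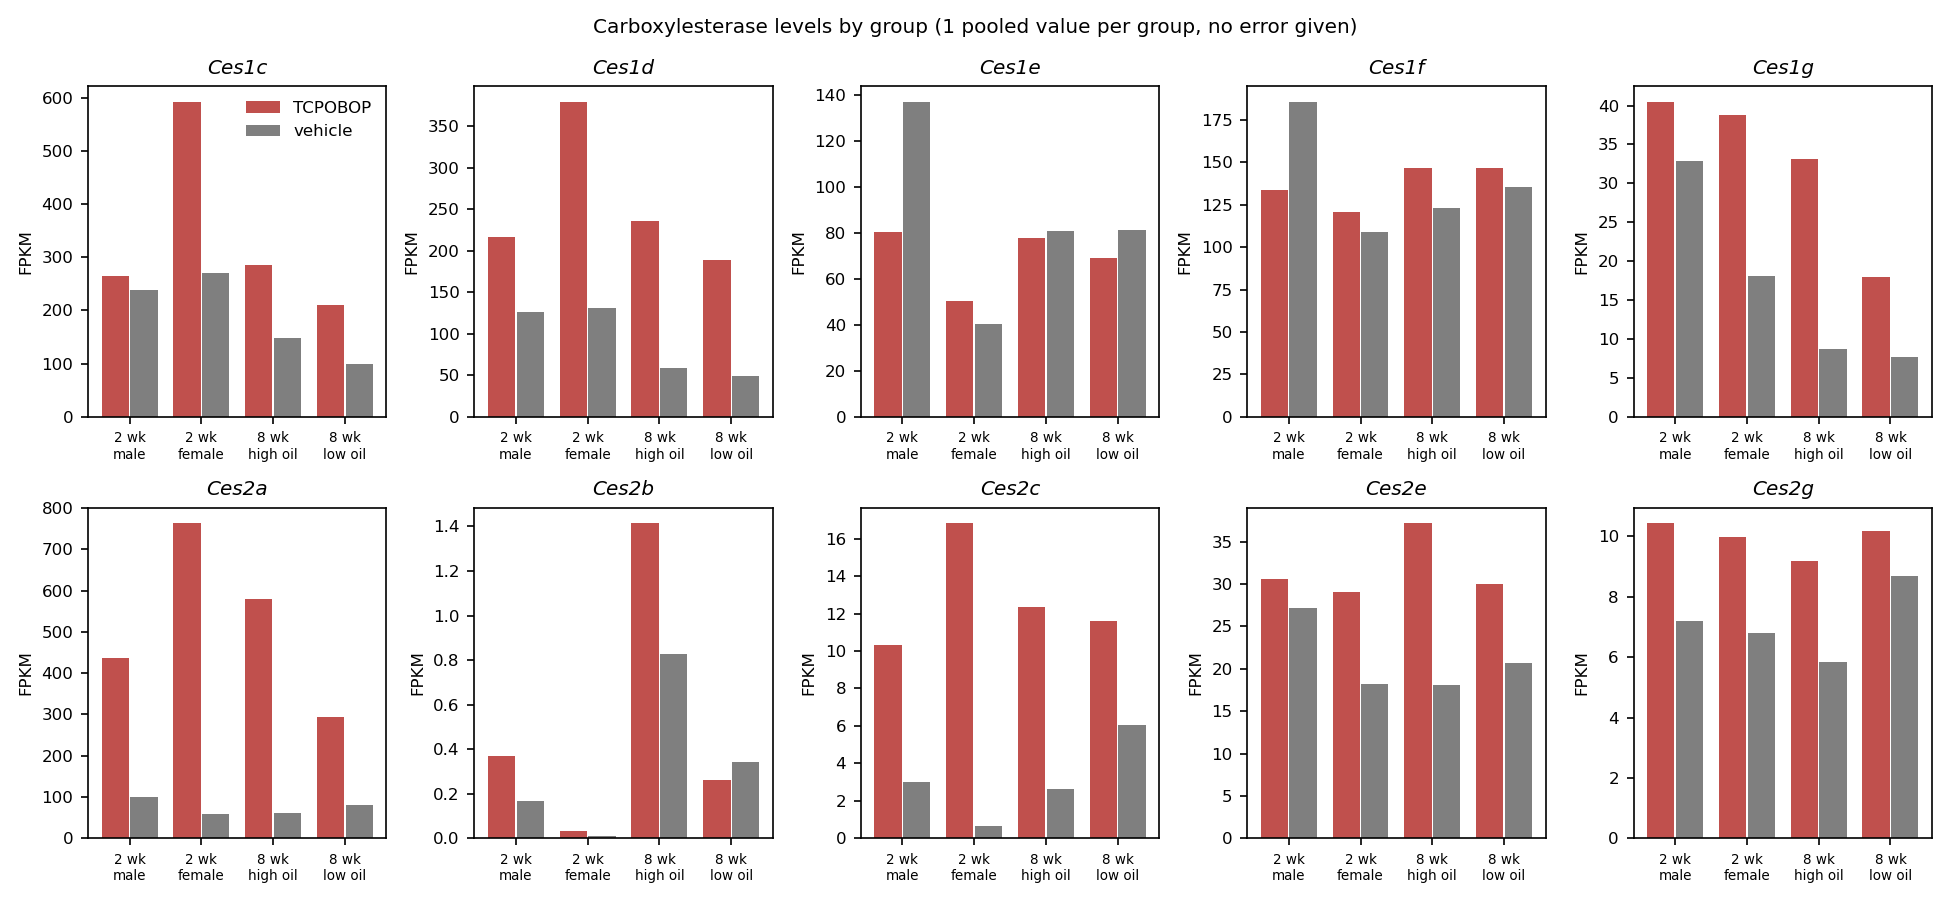
Level of each carboxylesterase in FPKM (vertical axis, from 0, its own scale per gene) in TCPOBOP (red) and vehicle (grey) livers of the 4 pairs of groups; the 8-week pairs are males, and the low oil vehicle males were treated for 4 to 8 weeks. Each bar is the authors' single pooled value without an error; Ces2a reaches 763 FPKM in TCPOBOP females, and for Ces1d, Ces2a, Ces2c, Ces2e and Ces2g every red bar is above every grey bar.

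The remaining Ces2 genes moved less. Ces2e, formerly Ces5, held 30.6 FPKM in TCPOBOP and 27.2 FPKM in vehicle males at 2 weeks, 29.0 FPKM in TCPOBOP and 18.2 FPKM in vehicle females, 37.2 FPKM in TCPOBOP and 18.1 FPKM in vehicle males under high corn oil, and 30.0 FPKM in TCPOBOP and 20.7 FPKM in vehicle males under low corn oil. It was called under high corn oil alone, 2.13-fold higher (adjusted p = 0.0264), with adjusted p of 0.335 to 1 in the other 3 pairs of the authors' deposited table. Whether its response differed between the pairs was not tested. Ces2g lay between 9.17 and 10.4 FPKM in the TCPOBOP groups and between 5.83 and 8.69 FPKM in the vehicle groups, with adjusted p of 0.119 to 1 in the authors' deposited table. For both genes all TCPOBOP values exceeded all vehicle values, as they did for 5 of the 10 members for 5.25% of all genes and for 8.23% of the 11325 genes of at least 1 FPKM in a group.

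Ces2b was nearly silent. It held 0.368 FPKM in TCPOBOP and 0.167 FPKM in vehicle males at 2 weeks, 0.0341 FPKM in TCPOBOP and 0.0108 FPKM in vehicle females, 1.41 FPKM in TCPOBOP and 0.827 FPKM in vehicle males under high corn oil, and 0.263 FPKM in TCPOBOP and 0.343 FPKM in vehicle males under low corn oil. The high corn oil groups were its highest and the female groups its lowest. In no TCPOBOP comparison was it called (adjusted p of 0.553 to 1 in the authors' deposited table), and it was the single member under 1 FPKM in both groups of a pair, in 3 of the 4 pairs.

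Among the Ces1 genes, Ces1d, known as triacylglycerol hydrolase and needed in mice for the assembly of very low density lipoprotein, rose in every pair. It stood at 217 FPKM in TCPOBOP and 126 FPKM in vehicle males at 2 weeks, 380 FPKM in TCPOBOP and 131 FPKM in vehicle females, 236 FPKM in TCPOBOP and 59.3 FPKM in vehicle males under high corn oil, and 189 FPKM in TCPOBOP and 49.2 FPKM in vehicle males under low corn oil. The TCPOBOP values of the male groups were close together, while the vehicle values of the longer treated males were lower than at 2 weeks. The rise was 1.64-fold in 2-week males (adjusted p = 0.027), 2.86-fold in 2-week females (adjusted p = 5.5e-06), 4.09-fold under high corn oil (adjusted p = 1.46e-11) and 3.60-fold under low corn oil (adjusted p = 1.74e-09) in the authors' deposited table.

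Ces1c, the carboxylesterase that mice secrete into plasma, was the most abundant member in 3 of the 4 vehicle groups. It held 265 FPKM in TCPOBOP and 239 FPKM in vehicle males at 2 weeks, and 592 FPKM in TCPOBOP and 270 FPKM in vehicle females. At 8 weeks it held 286 FPKM in TCPOBOP and 148 FPKM in vehicle males under high corn oil, and 211 FPKM in TCPOBOP and 100.1 FPKM in vehicle males under low corn oil. It rose 2.16-fold in 2-week females (adjusted p = 0.0144), 2.00-fold under high corn oil (adjusted p = 0.00231) and 1.97-fold under low corn oil (adjusted p = 0.00063), and had a ratio of 1.06 in 2-week males (adjusted p = 1) in the authors' deposited table.

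Ces1g, whose loss in mice leads to fatty liver, held 40.5 FPKM in TCPOBOP and 32.8 FPKM in vehicle males at 2 weeks, and 38.8 FPKM in TCPOBOP and 18.1 FPKM in vehicle females. At 8 weeks it held 33.2 FPKM in TCPOBOP and 8.75 FPKM in vehicle males under high corn oil, and 18.02 FPKM in TCPOBOP and 7.74 FPKM in vehicle males under low corn oil. The 2-week male vehicle value was higher than that of every other vehicle group and of 1 TCPOBOP group. Ces1g rose 3.91-fold under high corn oil (adjusted p = 1.8e-07) and 2.19-fold under low corn oil (adjusted p = 0.013), and the 2.12-fold difference in 2-week females was not called (adjusted p = 0.105) in the authors' deposited table. The 1.17-fold difference in 2-week males was not called either.

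Ces1e behaved otherwise. It encodes egasyn, which holds beta-glucuronidase in the endoplasmic reticulum of mouse liver. In 2-week males it stood at 80.1 FPKM under TCPOBOP and 137 FPKM under vehicle, and it was the single member called lower in any comparison (log2 fold change of -0.84, adjusted p = 0.00107, in the authors' deposited table). In females it held 50.5 FPKM under TCPOBOP and 40.3 FPKM under vehicle, at 8 weeks 77.6 FPKM under TCPOBOP and 80.8 FPKM under vehicle with high corn oil, and 68.9 FPKM under TCPOBOP and 81.1 FPKM under vehicle with low corn oil. None of these 3 pairs was called (adjusted p of 0.532 to 1 in the authors' deposited table). Gusb, the gene of beta-glucuronidase, was called higher under low corn oil, with 7.96 FPKM under TCPOBOP and 4.98 FPKM under vehicle (adjusted p = 0.0412), and not in the other pairs (adjusted p of 0.089 to 0.402) in the authors' deposited table.

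Ces1f, known as TGH-2, was the steadiest Ces1 gene, at 121 to 147 FPKM in the TCPOBOP groups and 109 to 185.7 FPKM in the vehicle groups. In 2-week males it held 134 FPKM under TCPOBOP and 185.7 FPKM under vehicle, a difference that was not called (adjusted p = 0.116), and its adjusted p was 0.807 to 1 in the other pairs of the authors' deposited table.

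**Figure D2:**
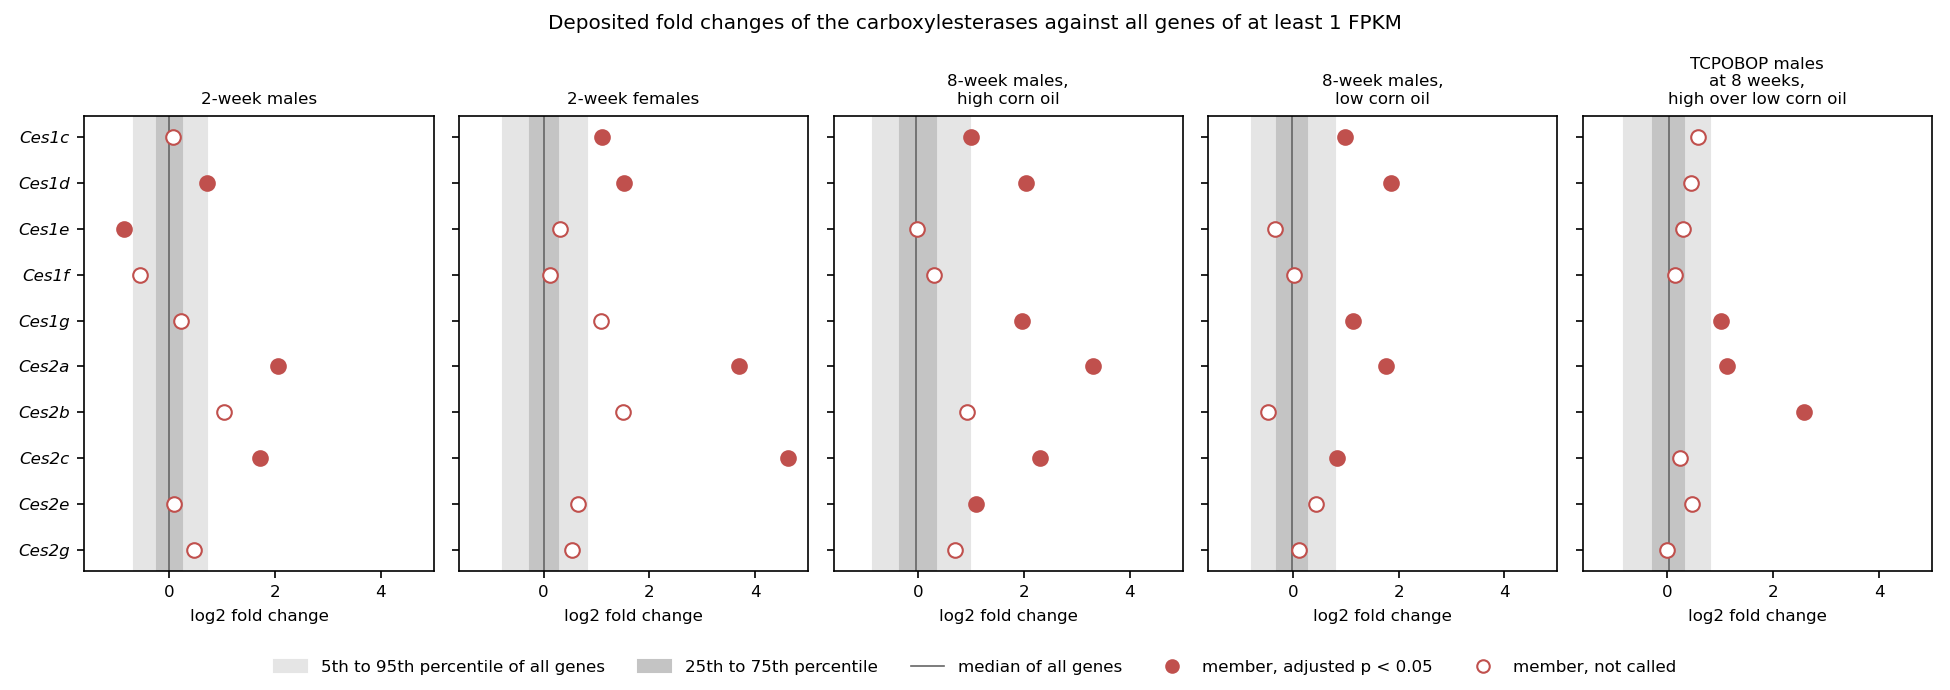
Log2 fold change (horizontal axis) of each member in the 5 deposited comparisons, filled where the adjusted p was under 0.05; grey shows the spread of all genes of at least 1 FPKM around their median. Ces2a and Ces2c lie right of the grey in the 4 TCPOBOP comparisons, and Ces1e in 2-week males is the single filled point on the left.

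By comparison, 3 members were higher and 1 lower in 2-week males, where 2.52% of all genes were called higher and 1.78% lower. In 2-week females 4 were higher and none lower (3.45% of all genes higher, 3.18% lower). Under high corn oil 6 were higher and none lower (4.08% of all genes higher, 1.88% lower), and under low corn oil 5 were higher and none lower (3.72% higher, 2.81% lower). The members are mostly abundant genes, and among genes of at least 1 FPKM the shares called higher were larger, at 4.35%, 6.44%, 7.59% and 5.66% in the same order. With a change of at least 2-fold required as well, 2 members remained in 2-week males (2.57% of all genes) and 3 in low corn oil males (3.86%), where an adjusted p under 0.01 also left 3 (3.85%). The median log2 fold change of the 10 members was 0.35, 1.10, 1.04 and 0.63 in that order, beside medians of all genes of at least 1 FPKM of -0.0069, 0.0126, -0.0449 and -0.015.

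The make-up of the family changed with treatment. The Ces2 members made up 39.9% of the summed member FPKM in TCPOBOP and 16.1% in vehicle males at 2 weeks, and 40.9% in TCPOBOP and 12.9% in vehicle females. At 8 weeks the share was 45.1% in TCPOBOP and 17.4% in vehicle males under high corn oil, and 35.3% in TCPOBOP and 23.8% in vehicle males under low corn oil. Ces2a was the largest part of it in every group, and alone made up 30.0% to 40.9% of the sum in TCPOBOP groups and 8.91% to 16.5% in vehicle groups. These sums rest on the authors' gene lengths. The header names RefSeq gene bodies as the region, and neither labels nor header give the lengths. The order of levels was Ces2a, Ces1c, Ces1d, Ces1f and Ces1e in all 4 TCPOBOP groups. In the vehicle groups Ces1c and Ces1f or Ces1d led, and the tests in the table do not compare genes with each other.

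**Figure D3:**
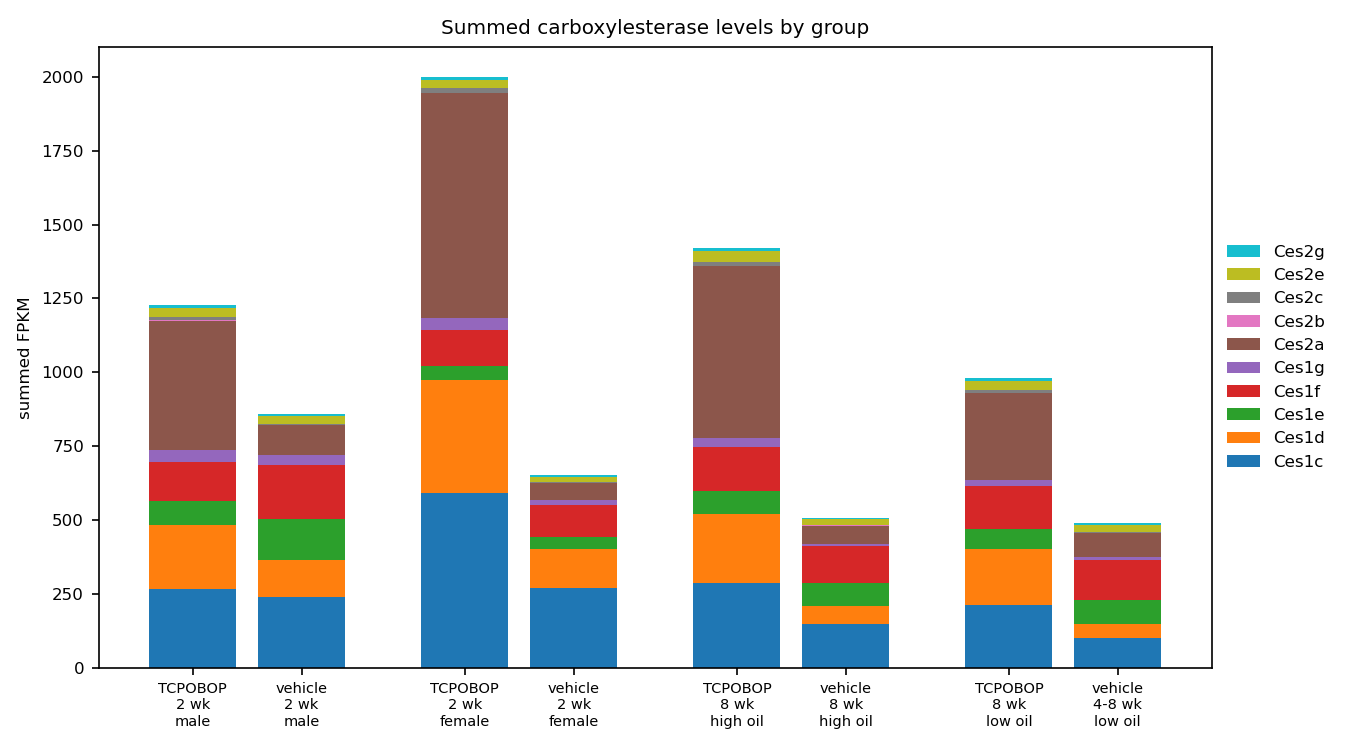
Summed FPKM of the 10 members (vertical axis, from 0) in the 8 groups, stacked by gene, TCPOBOP left of its vehicle. The sum is 2001 FPKM in TCPOBOP and 652 FPKM in vehicle females, the widest pair, and the Ces2a block accounts for most of the difference in each pair but that of low corn oil.

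In 2-week mice the female level was below the male level for 8 of 10 members under vehicle, where 29.5% of 11261 genes of at least 1 FPKM were lower in females. No deposited test compares the sexes, so these are values without a test, and the median female to male log2 ratio of all genes was 0.13 under vehicle and 0.07 under TCPOBOP. Ces2c had 0.682 FPKM in female and 3.01 FPKM in male vehicle livers, Ces1e 40.3 FPKM in female and 137 FPKM in male vehicle livers, and Ces2a 58.1 FPKM in female and 100.5 FPKM in male vehicle livers. Under TCPOBOP, Ces2a and Ces2c were instead higher in females, at 763 FPKM in female and 438 FPKM in male livers for Ces2a and 16.8 FPKM in female and 10.3 FPKM in male livers for Ces2c. For all 10 members the female to male ratio was greater under TCPOBOP than under vehicle, which held for 41.4% of the 11261 genes. For Ces2b this rests on 0.0341 FPKM in TCPOBOP and 0.0108 FPKM in vehicle females. With a pseudocount of 0.1 FPKM its log2 ratio of TCPOBOP to vehicle was 0.27 in females and 0.81 in males, so its order turned. For Ces2g these log2 ratios were close, at 0.55 in females and 0.53 in males without a pseudocount. The title of 1 of the 4 TCPOBOP females carries another set code than the other 2-week libraries, whereas the file header lists it under the same code, and its part in these values was not tested.

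**Figure D4:**
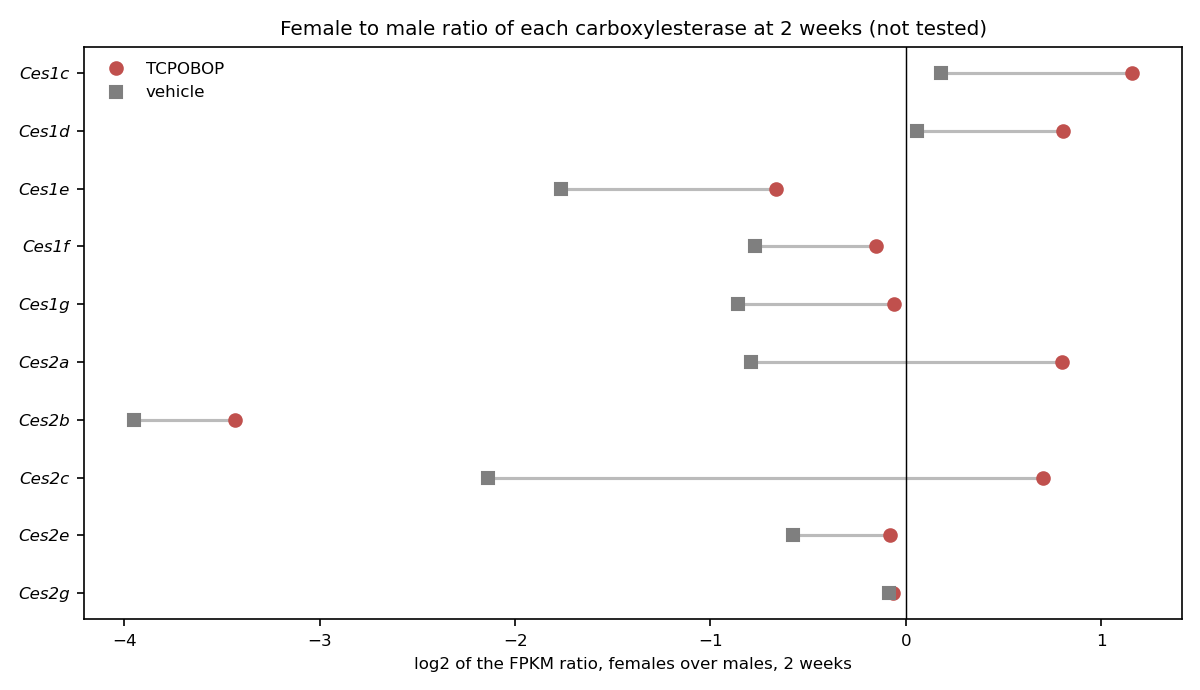
Log2 of the female to male FPKM ratio at 2 weeks (horizontal axis, 0 marks equal values) for each member under TCPOBOP (circles) and vehicle (squares). All 10 circles lie right of their squares, and for Ces2a and Ces2c the circle is right of 0 and the square left of it. Ces2b was under 1 FPKM in these groups, and its order turned with a pseudocount of 0.1 FPKM.

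The vehicle groups themselves differed. Compared with vehicle males at 2 weeks, 9 of 10 members were lower in the high corn oil vehicle males (45.9% of genes lower) and 7 of 10 in the low corn oil vehicle males of 4 to 8 weeks (46% of genes lower). Ces1g stood at 8.75 FPKM in high corn oil and 7.74 FPKM in low corn oil vehicle males, against 32.8 FPKM in vehicle males at 2 weeks. Ces1d stood at 59.3 FPKM and 49.2 FPKM in these longer groups, against 126 FPKM at 2 weeks. Under TCPOBOP, Ces1d stood at 236 FPKM under high and 189 FPKM under low corn oil, against 217 FPKM at 2 weeks. Ces1g under TCPOBOP stood at 33.2 FPKM under high and 18.02 FPKM under low corn oil, against 40.5 FPKM at 2 weeks, so that it was also lower in the treated low corn oil males. None of these differences between times was tested. The 8-week folds of Ces1d and Ces1g, larger than those in 2-week males, thus came with lower vehicle values. The high corn oil vehicle males differ from those at 2 weeks in age, time and oil, which cannot be told apart. The low corn oil vehicle males of 4 to 8 weeks share the oil regimen of the 2-week males and differ from them in age, time and set code, which cannot be told apart either. The summed FPKM of 10 hepatocyte markers was 14671 in vehicle males at 2 weeks. In high corn oil vehicle males it was 9563 and in low corn oil vehicle males 6003. Alb and Apoa1 were the largest parts of this sum, at 7834 and 3321 FPKM in vehicle males at 2 weeks. The part of these markers in the carboxylesterase values was not tested.

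TCPOBOP-treated males of the 2 regimens at 8 weeks were also compared by the authors. Here 3 members were higher under high corn oil and none lower, where 3.6% of all genes were called higher and 3.81% lower, and 7.6% of genes of at least 1 FPKM higher. Ces2a stood at 580 FPKM under high and 294 FPKM under low corn oil (2.19-fold, adjusted p = 0.000362), Ces1g at 33.2 FPKM under high and 18.02 FPKM under low corn oil (2.01-fold, adjusted p = 0.00937), and Ces2b at 1.41 FPKM under high and 0.263 FPKM under low corn oil (6.02-fold, adjusted p = 0.00107) in the authors' deposited table. Ces2b also stood higher in the high corn oil vehicle group, at 0.827 FPKM against 0.343 FPKM in the low corn oil vehicle group, whereas Ces2a stood lower there, at 60.9 FPKM against 80.8 FPKM. The CAR target Cyp2b10 was also called higher under high corn oil, and its relation to the 3 member calls was not tested. Later doses and set codes differ between these regimens too, and cannot be told apart from the oil. Of 8 endothelial markers 5 were lower under high corn oil and none higher, with a summed level of 129 FPKM under high and 220 FPKM under low corn oil. Of 10 hepatocyte markers 3 were higher, Apoa1, Serpina1a and F2, and none lower. The 10 had a summed level of 13155 FPKM under high and 8767 FPKM under low corn oil, and a median log2 fold change of 0.19. For all genes of at least 1 FPKM that median was 0.026. Col1a1 and Rgs5 of 8 stellate cell and matrix markers were lower, and S100a9, a neutrophil gene, was higher. The part of these markers in the 3 member calls was not tested.

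Among other carboxylesterases of the same chromosome, Ces3a and Ces4a were called lower in 3 of the 4 TCPOBOP comparisons each. Of 10 listed, 9 were measured, and Ces1h is not analysed here. Ces3a, a liver carboxylesterase of the neighbouring subfamily, held 615 FPKM in TCPOBOP and 913 FPKM in vehicle males at 2 weeks, 111 FPKM in TCPOBOP and 321 FPKM in vehicle females, and 507 FPKM in TCPOBOP and 814 FPKM in vehicle males under low corn oil (adjusted p = 0.0294, 1.78e-07 and 0.00176 in the authors' deposited table). Under high corn oil it held 595 FPKM in TCPOBOP and 816 FPKM in vehicle males (adjusted p = 0.49). Ces3b was called lower in females, with 76.0 FPKM under TCPOBOP and 174 FPKM under vehicle (adjusted p = 1.17e-05 in the authors' deposited table). Under high corn oil it held 443 FPKM in TCPOBOP and 686 FPKM in vehicle males and was not called (adjusted p = 0.755 in the authors' deposited table), and the difference between pairs was not tested. Ces4a was called lower at very low levels, with 0.00588 FPKM in TCPOBOP and 0.227 FPKM in vehicle females (adjusted p = 2.41e-10), 0.404 FPKM in TCPOBOP and 2.19 FPKM in vehicle males under high corn oil (adjusted p = 0.0268), and 0.123 FPKM in TCPOBOP and 0.475 FPKM in vehicle males under low corn oil (adjusted p = 0.0419) in the authors' deposited table. Ces1a was nearly silent and called lower under high corn oil, with 0.0221 FPKM under TCPOBOP and 0.161 FPKM under vehicle (adjusted p = 0.0286 in the authors' deposited table). Ces1b, which shares sequence with Ces1c, was called in none of the 4, and between the TCPOBOP males it stood at 86.3 FPKM under high and 46.1 FPKM under low corn oil (adjusted p = 7.44e-05 in the authors' deposited table). Ces3b also stood higher there, at 443 FPKM under high and 263 FPKM under low corn oil, and Ces2d-ps lower, at 0.725 FPKM under high and 1.61 FPKM under low corn oil (adjusted p = 0.0361 and 0.0293 in the authors' deposited table). In all, 1 of the 9 was lower and none higher in 2-week males, 3 lower and 1 higher in females, and 2 lower and none higher in each 8-week pair. Of all genes, 1.78% were called lower in 2-week males, 3.18% in females, 1.88% under high and 2.81% under low corn oil. The shares called higher were 2.52%, 3.45%, 4.08% and 3.72% in the same order.

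Of 20 other esterases and lipid, epoxide and lactone hydrolases, 1 was higher and 1 lower in 2-week males, 4 higher and none lower in females, 4 higher and none lower under high corn oil, and 5 higher and 1 lower under low corn oil. Of all genes, 2.52%, 3.45%, 4.08% and 3.72% were called higher in that order, and 1.78%, 3.18%, 1.88% and 2.81% lower. Nceh1, which hydrolyses neutral cholesteryl esters, rose in all 4 pairs, by 1.79-fold to 2.18-fold (adjusted p of 0.000208 to 0.00213 in the authors' deposited table). Ephx1, the microsomal epoxide hydrolase, held 204 FPKM in TCPOBOP and 44.6 FPKM in vehicle females (adjusted p = 1.47e-07), rose in both 8-week pairs, and was not called in 2-week males (adjusted p = 0.173) in the authors' deposited table. Under low corn oil Bche, butyrylcholinesterase, rose 2.51-fold (adjusted p = 0.00152), and Lipe, hormone-sensitive lipase, fell by 0.97 on the log2 scale (adjusted p = 0.000905) in the authors' deposited table.

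Across the 8 group values, log2(FPKM + 0.1) of Ces2a correlated with that of Ces1d at r = 0.87, of Ces2c at r = 0.87 and of Ces2e at r = 0.88, and Ces1e correlated with Ces1f at r = 0.88 and with Ces2a at r = -0.11. These are descriptions over 8 pooled values that share libraries and depth. Among 5088 genes outside the family with a mean of at least 5 FPKM, the gene most like Ces2a was Lamtor1 (r = 0.99), that most like Ces2c was Tsku (r = 0.96), and that most like Ces1d was Itfg1 (r = 0.99). Ces1e was most like Abcg2 (r = 0.96) and Ces1f most like Cyp2c44 (r = 0.93), while Ces1c, Ces1g, Ces2b, Ces2e and Ces2g had Aph1a, Tmco1, Nudt13, Ergic1 and Septin9 as their nearest genes, at r of 0.94 to 0.99. Each of these r was picked as the highest of 5088 over only 8 values, so a high r says little. Nor does r reflect the size of a change. Lamtor1 held 8.81 to 19.8 FPKM over the groups, and Ces2a 58.1 to 763 FPKM.

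All 10 hepatocyte markers were at or above 1 FPKM in every comparison, with sums of 8767 to 14253 FPKM in TCPOBOP groups and 6003 to 16365 FPKM in vehicle groups, and 1 to 2 of them were called in each TCPOBOP comparison. Alb, the albumin gene, was lower in 2-week males, Tat and Pck1 were lower in females, Apoa1 was higher in both 8-week pairs, and Tat was lower under low corn oil. S100a8, a neutrophil gene, was called higher in all 4 TCPOBOP comparisons, at 6.32 to 41.0 FPKM in TCPOBOP groups and 0.236 to 1.70 FPKM in vehicle groups. The summed level of all 7 lymphocyte and neutrophil markers was 18.3 to 53.1 FPKM in TCPOBOP groups and 6.25 to 12.9 FPKM in vehicle groups, and none of the other 6, S100a9 included, was called in these 4 comparisons. Col1a1 and Col3a1 of 8 stellate cell and matrix markers were also higher in all 4 and Lrat lower under low corn oil, with summed levels of 66.6 to 107 FPKM in TCPOBOP groups and 54.9 to 93.6 FPKM in vehicle groups. None of 7 measured Kupffer cell markers was called, with sums of 116 to 167 FPKM in TCPOBOP groups and 79.8 to 132 FPKM in vehicle groups. Endothelial sums were 129 to 248 FPKM in TCPOBOP groups and 143 to 228 FPKM in vehicle groups, and cholangiocyte sums 13.7 to 24.7 FPKM in TCPOBOP groups and 8.99 to 14.7 FPKM in vehicle groups, with 1 call in each list over the 4 TCPOBOP against vehicle comparisons. Of all genes, 2.52% to 4.08% were called higher and 1.78% to 3.18% lower in these TCPOBOP comparisons. The part of these markers in the carboxylesterase results was not tested.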

How the data were processed

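Poly(A) nuclear RNA of 28 mouse livers was sequenced. Per the submitters' processing notes, reads were aligned with TopHat2 2.0.13 to mm9 and counted with featureCounts 1.4.6-p5, and edgeR is named without a version. The deposited FPKM values are 1 per group, over RefSeq gene bodies per the file headers, with no statement of how replicates were combined. Fold changes were deposited as a signed score, the negative inverse where the ratio is under 1. The deposited p-value is the authors' and has many values at exactly 1 (13548 to 15610 genes a comparison), as Benjamini-Hochberg adjusted values do. It is called adjusted p here. Replicates are livers with separate numbers per the labels.

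Signed folds were turned into log2 fold changes with pandas 2.3.3 in Python 3.11.15, and calls use an adjusted p under 0.05. The deposited folds differ from FPKM ratios by -0.11 to 0.15 on the log2 scale (median of genes), a shift the labels do not describe. Called genes were as many as the header states. No column holds a single library, so total counts, standard deviations and own edgeR or limma fits could not be had. Promoter windows are from RefSeq (GRCm38.p6), cut to the 250 bases before the start, with alignments by Biopython 1.88. Named genes are all members, the other carboxylesterases called, the 4 other hydrolases with the smallest p plus Gusb, and for each member the gene with the highest correlation. Gm7208, Alb and the other markers named singly were chosen after their values were seen. Protein sequences were not analysed here. The members and lists were chosen with earlier results of these data known. Conversions were tested on simulated data. Other alternatives were a threshold of 0.01, a minimum change of 2-fold, a minimum of 1 FPKM, and pseudocounts of 0.1 and 1.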

Additional observations from a re-analysis of the deposited data

How the results depend on the processing

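There were 22 calls of members over the 5 comparisons. With at least 2-fold required as well, the called members were 2 in 2-week males and 3 in 8-week low corn oil males, against 4 in 2-week males and 5 in low corn oil males without it. At an adjusted p under 0.01 there were 3 in the low corn oil males. Other counts of members stayed within 1.5 times. Of 200 member values on other scales, 196 kept their direction and the other 4 were of genes not called. Ces1e under high corn oil turned to 0.0129 once the median of all genes was subtracted, and Ces1f between the regimens to -0.000211 (FPKM ratio, and with a pseudocount of 0.1) and -0.000209 (pseudocount of 1). Ces2b moved most with a pseudocount of 1, for example to 0.93 from 2.59 between the regimens. No paired analysis was possible because the deposited columns are pooled over replicates, and leaving out replicates and DESeq2 were not run for the same reason. The unknown depth limits Ces2b most, whose highest level was 1.41 FPKM.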
